A study of Rattus norvegicus with 9 samples.

Results

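The 10 genes described here carry out or mark the resting work of astrocytes, the glial cells that tend the fluid around neurons. They were chosen by name: Slc1a2, Slc1a3, Glul and Slc7a10 for amino acid handling, Kcnj10, Aqp4 and Gja1 for potassium, water and coupling, and Fgfr3, Aldh1l1 and Sox9 for astrocyte identity. All 10 were found among the 22888 genes of the deposited gene table, and all 10 had a value above 0 in every library and passed the filter on low values.

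Astrocytes clear glutamate released at synapses through sodium-driven transporters and turn it into glutamine, which returns to neurons. They also take up potassium through inwardly rectifying channels, move water through channels gathered on the endfeet around vessels, and share ions and metabolites through gap junctions. After ischaemia astrocytes become reactive, raising intermediate filament and injury-response genes, and glutamate and potassium uptake are known points of failure in stroke.

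RNA was sequenced from brain of male Sprague-Dawley rats in 9 libraries, 3 per group. The astaxanthin libraries (1, 2 and 3) came from rats given astaxanthin, a carotenoid antioxidant, by gavage at 45 mg/kg for 7 days before the middle cerebral artery was occluded on a single side, with tissue taken 1 day after the occlusion. The model libraries (1, 3 and 4) came from rats with the same occlusion and no stated astaxanthin, and the sham libraries (1, 3 and 5) from sham-operated rats; the labels do not say whether these groups received a vehicle, and give neither the age of the rats nor the brain region or side taken. The labels do not state that each library was a separate animal, so p-values measure only the spread between these samples.

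The libraries held 52268061 to 76311125 reads, and levels are given as normalized reads, the authors' read counts divided by a single factor per library. A gene was called when its adjusted p in limma, fitted over all 9 libraries and 17770 genes, was under 0.05. Astaxanthin 1 and model 3 stood apart from the other libraries in their cell markers, and sham 5 in its choroid plexus and ependymal genes. The 13 listed genes of cerebellar neurons summed to 37407 to 475269 normalized reads in astaxanthin libraries, 28589 to 49657 in model libraries and 38516 to 63751 in sham libraries, and all 13 were highest in astaxanthin 1. The 12 listed genes of infiltrating myeloid cells summed to 4563 to 10402 in astaxanthin libraries, 9440 to 38665 in model libraries with the highest in model 3, and 2256 to 3114 in sham libraries; Mpo and Camp were at 0 in every astaxanthin library and Cxcr2 in every sham library. The 15 pan-neuronal genes summed to 411944 to 506423 in astaxanthin libraries, 176970 to 491093 in model libraries with the lowest in model 3, and 514360 to 622151 in sham libraries. The 9 choroid plexus and ependymal genes summed to 8047 to 189878 in astaxanthin libraries, 3141 to 15807 in model libraries and 1114 to 114629 in sham libraries. The 9 endothelial genes summed to 31336 to 45836 in astaxanthin libraries, 43631 to 130129 in model libraries with the highest in model 3, and 22492 to 24560 in sham libraries. No gene of the cerebellar, pan-neuronal, choroid or endothelial lists was at 0 throughout a group.

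In model against sham, 1 of the 10 genes rose and 2 fell. Sox9, a transcription factor of the astrocyte lineage, rose, while Slc7a10, an exchanger of small neutral amino acids that carries D-serine and glycine, and Fgfr3, a fibroblast growth factor receptor of astrocytes, fell. Over all genes tested the share called was 3.45% higher and 1.32% lower. The median log2 fold change of the 10 genes was -0.42, beside 0.02 for all genes tested, with 4 positive and 6 negative. The 10 genes therefore did not move in a single direction: Sox9 and Glul lay higher in every model library than in any sham library, Kcnj10, Slc7a10 and Fgfr3 lay lower, and the other 5 overlapped. Groups that did not overlap made up 19% of all genes in the higher direction and 16.6% in the lower direction. In bulk brain tissue, fewer astrocytes and less RNA per astrocyte cannot be told apart.

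**Figure D1:**
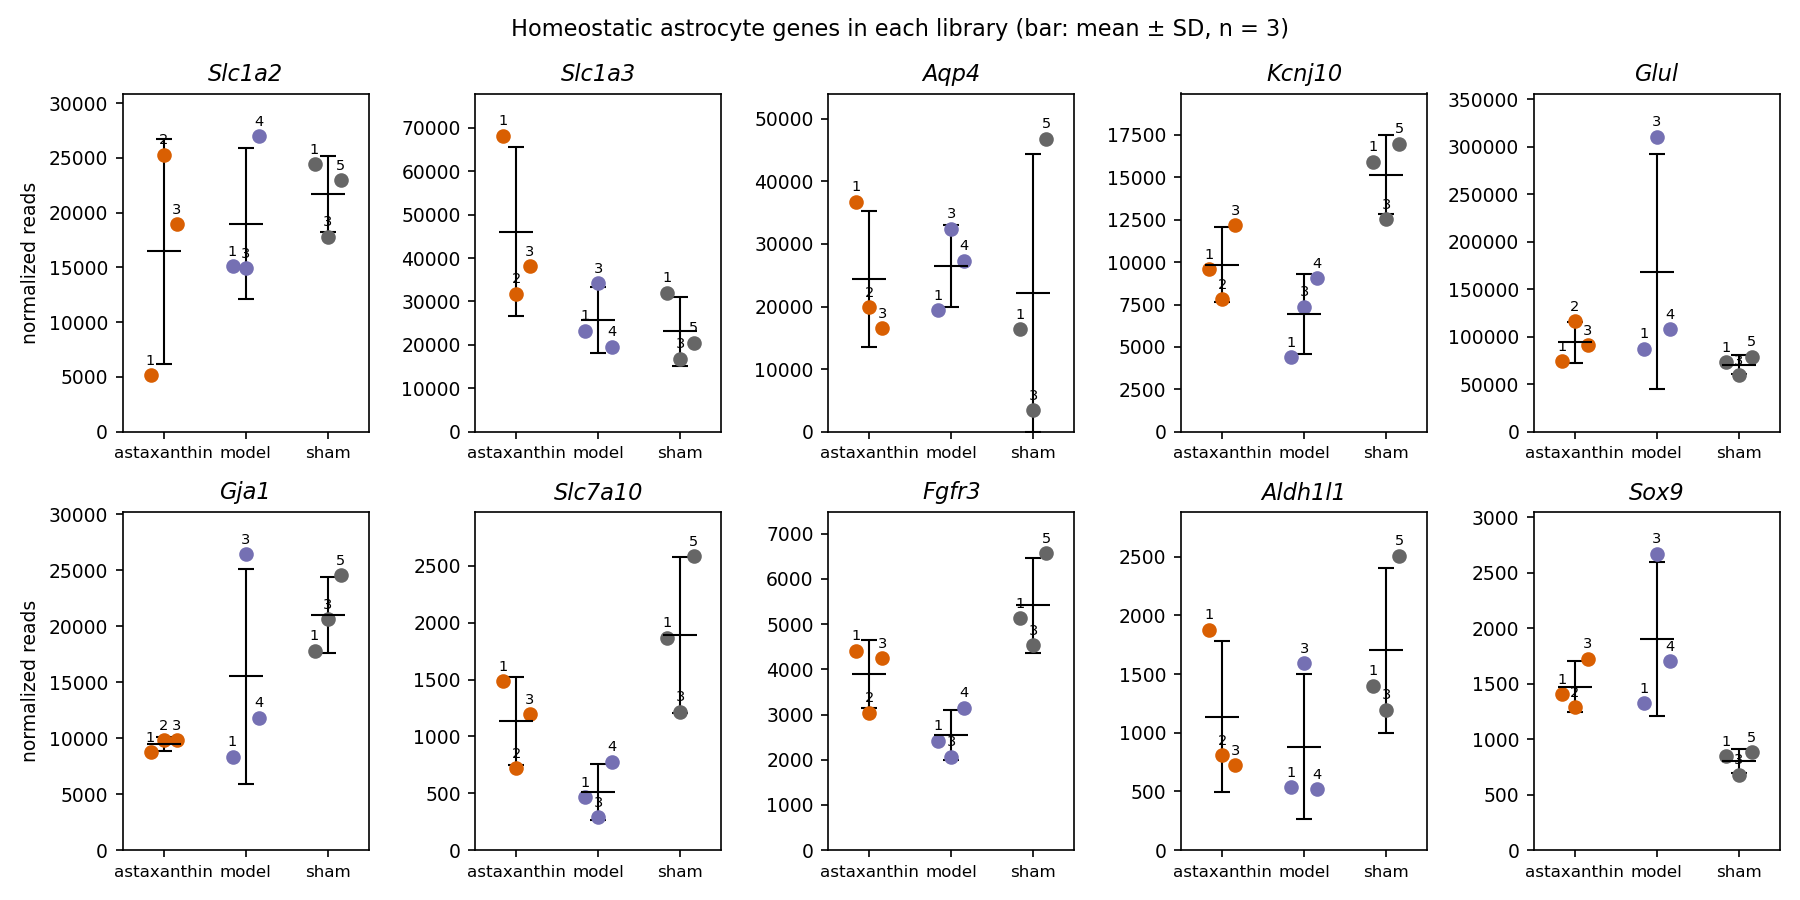
Normalized reads of each of the 10 genes in astaxanthin, model and sham libraries; each point is a library with its number, the bar is the mean and the whiskers the SD of 3 libraries (the lower whisker of Aqp4 in sham ends at 0). Kcnj10, Slc7a10 and Fgfr3 were lower in all 3 model libraries than in any sham library, Sox9 and Glul were higher, and the highest Glul, Gja1 and Sox9 values belong to model 3.

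Slc1a2 encodes the main glutamate transporter of forebrain astrocytes, and lies on chromosome 3 at 89005129 to 89126498 in the coordinates of the deposited table. It had 5136, 25300 and 18944 normalized reads in astaxanthin libraries 1, 2 and 3, against 15108, 14906 and 26984 in model libraries 1, 3 and 4, and 24408, 17810 and 22970 in sham libraries 1, 3 and 5. The groups overlapped, and astaxanthin 1 was lower than every other library. The log2 fold change of model over sham was -0.24 (SE 0.54, limma adjusted p = 0.822), with a 95% confidence interval from -1.47 to 0.997.

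Slc1a3, on chromosome 2 at 57755497 to 57830605, encodes the glutamate transporter that predominates in cerebellar astrocytes. It had 68184, 31757 and 38178 normalized reads in astaxanthin libraries 1, 2 and 3, against 23281, 34166 and 19541 in model libraries 1, 3 and 4, and 31980, 16763 and 20536 in sham libraries 1, 3 and 5. Astaxanthin 1 was the highest, and all 3 groups overlapped. The log2 fold change was 0.17 for model over sham (SE 0.36, limma adjusted p = 0.814). Within astaxanthin 1 the ratio of Slc1a2 to Slc1a3 was 0.0753, against 0.436 to 1.38 in the other libraries. That library also had 44128 normalized reads of Gabra6, a GABA receptor subunit typical of granule cells, and 4643 of Gdf10, a gene of Bergmann glia, against at most 256 and 751 in any other library. The part of these cerebellar genes in the Slc1a2 and Slc1a3 values was not tested.

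Glul, on chromosome 13 at 66025630 to 66035108, encodes glutamine synthetase. It had 74457, 116406 and 90975 normalized reads in astaxanthin libraries 1, 2 and 3, against 87572, 310458 and 107907 in model libraries 1, 3 and 4, and 73129, 59558 and 78825 in sham libraries 1, 3 and 5. Every model library lay above every sham library, and model 3 lay far above the other 2. Model over sham gave a log2 fold change of 1.03 (SE 0.44), which missed the threshold with limma (adjusted p = 0.200) and edgeR (adjusted p = 0.146), while DESeq2 called it (adjusted p = 0.0450). DESeq2 called 11.4% of the genes it tested higher and 6.51% lower in this comparison. Without model 3 the log2 fold change was 0.47 (limma adjusted p = 0.268).

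Slc7a10 had 1485, 721 and 1197 normalized reads in astaxanthin libraries 1, 2 and 3, against 464, 289 and 776 in model libraries 1, 3 and 4, and 1869, 1217 and 2587 in sham libraries 1, 3 and 5. All model libraries were lower than all sham libraries, with means of 510 ± 247 in model and 1891 ± 685 in sham (SD, n = 3 each), a ratio of 0.270. The gene lies on chromosome 1 at 87829175 to 87845071. Its log2 fold change was -1.94 (SE 0.44, limma adjusted p = 0.0445), the furthest from 0 among the 10 genes.

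Fgfr3 had 4411, 3040 and 4250 normalized reads in astaxanthin libraries 1, 2 and 3, against 2421, 2063 and 3147 in model libraries 1, 3 and 4, and 5135, 4534 and 6573 in sham libraries 1, 3 and 5. Again every model library was lower than every sham library, with means of 2544 ± 552 in model and 5414 ± 1048 in sham (SD, n = 3 each). The gene lies on chromosome 14 at 76987993 to 77003341. Its log2 fold change was -1.09 (SE 0.23, limma adjusted p = 0.0371).

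Slc7a10 and Fgfr3 had the most similar profiles among the 10 genes. With log2 values over the 9 libraries scaled to mean 0 and SD 1, their Euclidean distance was 0.39, while the next closest pair, Kcnj10 and Fgfr3, lay at 1.36. Because these 3 genes lay closest together, their promoter sequences are shown, from RefSeq on the GRCr8 assembly, each running from 250 bases before to 50 bases after the annotated start, 5′ to 3′ on the strand of the gene. Capitals mark CpG dinucleotides, the sites at which mammalian DNA is mostly methylated; no methylation was measured here. The windows are Fgfr3 at chr14:81227160-81227459 on the minus strand, Slc7a10 at chr1:96965872-96966171 on the plus strand and Kcnj10 at chr13:87334260-87334559 on the plus strand.
Fgfr3: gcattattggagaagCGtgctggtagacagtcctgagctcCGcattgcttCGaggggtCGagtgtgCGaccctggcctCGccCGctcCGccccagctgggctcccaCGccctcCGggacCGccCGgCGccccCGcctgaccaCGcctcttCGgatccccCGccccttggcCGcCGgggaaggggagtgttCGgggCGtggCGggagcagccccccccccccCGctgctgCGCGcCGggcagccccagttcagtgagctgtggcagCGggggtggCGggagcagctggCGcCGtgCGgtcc
Slc7a10: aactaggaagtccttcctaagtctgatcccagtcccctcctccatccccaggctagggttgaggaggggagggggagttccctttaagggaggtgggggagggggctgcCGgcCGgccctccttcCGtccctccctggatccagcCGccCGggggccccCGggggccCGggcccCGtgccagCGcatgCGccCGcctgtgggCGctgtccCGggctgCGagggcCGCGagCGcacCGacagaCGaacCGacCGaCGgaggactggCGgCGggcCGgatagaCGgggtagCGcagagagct
Kcnj10: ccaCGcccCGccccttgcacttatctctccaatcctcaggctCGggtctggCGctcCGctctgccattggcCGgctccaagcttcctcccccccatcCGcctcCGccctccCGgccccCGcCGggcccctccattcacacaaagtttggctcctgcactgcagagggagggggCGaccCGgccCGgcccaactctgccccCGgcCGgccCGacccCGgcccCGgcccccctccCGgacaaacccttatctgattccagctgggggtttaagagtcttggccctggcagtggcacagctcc
All 3 windows were rich in G and C. GC content was 74.7% in Fgfr3, 72.3% in Slc7a10 and 70.3% in Kcnj10, against a median of 51.7% over 33469 rat promoter windows of the same length. The windows held 31, 27 and 20 CpG dinucleotides in that order, against a median of 7, and 24.2% of all windows held at least 20. High GC and CpG content was not confined to these 3 genes. Window 1 of Slc1a2 had 71% GC and 39 CpG dinucleotides, and its window 2 had 46.3% and 2. The Slc1a2 profile lay further from each of the 3 genes than they lay from each other. The matched windows of the remaining genes were lower than these 3 in both measures.

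Promoter windows were matched for 9 of the 10 genes, and Sox9 is named only. The 9 genes had 14 windows, since several genes have more than 1 annotated start; the 3 windows of Slc1a3 overlap. Both strands were searched for the SOX site ACAAAG, the short NFI site TTGGCA, the NFI full site, the STAT site TTCNNNGAA, the RBPJ site GTGGGAA and the TATA box TATAAA, and no short NFI site was counted within a full site because the windows of these 9 genes held no full site. The SOX site was present in at least 1 window of 3 of the 9 genes (Kcnj10, Slc1a3 and Aqp4), beside 19.7% of all 27457 genes, and in 5 of the 14 windows, beside 18.8% of all windows. In Kcnj10 it begins 112 bases before the start. The short NFI site was present in Glul and Slc1a3, beside 14.7% of all genes, and the RBPJ site in Slc1a3, beside 6.7%. None of the searched motifs was present in the windows of Fgfr3, Slc7a10, Slc1a2, Gja1 or Aldh1l1. None of the 9 genes held the STAT site (9.39% of all genes), the TATA box (15.3%) or the full NFI site (0.0473%). These are matches of letters in a fixed window.

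Kcnj10 encodes the inwardly rectifying potassium channel that carries most potassium uptake of astrocytes, and lies on chromosome 13 at 84802009 to 84835461. It had 9579, 7812 and 12168 normalized reads in astaxanthin libraries 1, 2 and 3, against 4383, 7365 and 9048 in model libraries 1, 3 and 4, and 15928, 12545 and 16993 in sham libraries 1, 3 and 5. All sham libraries were higher than all others. The model mean was 6932 ± 2362 and the sham mean 15155 ± 2322 (SD, n = 3 each). Model over sham gave a log2 fold change of -1.18 (SE 0.29); limma missed the threshold (adjusted p = 0.0561), as did edgeR (adjusted p = 0.0707), and DESeq2 called it (adjusted p = 0.00443). With a single library left out, limma called it in 1 of 9 fits, at -1.40 without model 4 (adjusted p = 0.0393). Its limma adjusted p reached 0.183 in the others.

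Aqp4, on chromosome 18 at 6507903 to 6524856, encodes the water channel of astrocyte endfeet. It had 36752, 19924 and 16567 normalized reads in astaxanthin libraries 1, 2 and 3, against 19446, 32462 and 27338 in model libraries 1, 3 and 4, and 16350, 3415 and 46796 in sham libraries 1, 3 and 5. The sham libraries spanned a 13.7-fold range that contained all 6 other libraries. The log2 fold change of model over sham was 0.91 (SE 0.81, limma adjusted p = 0.537), with a 95% confidence interval from -0.93 to 2.75, and it turned to -0.10 without sham 3. Lists of other cells were measured as the mean log2 difference from the sham mean. The choroid plexus and ependymal genes were at -1.16, -2.38 and 3.54 in sham 1, 3 and 5 and at 3.71 in astaxanthin 1. The sham libraries thus came in the same order as for Aqp4. Other lists had this order too, such as the oligodendrocyte list at 0.21, -0.65 and 0.44. The pan-neuronal list, at 0.008, 0.13 and -0.14, did not. The part of any of these lists in the Aqp4 values was not tested.

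Gja1, on chromosome 20 at 35755991 to 35768582, encodes the main gap junction protein of astrocytes. It had 8717, 9805 and 9837 normalized reads in astaxanthin libraries 1, 2 and 3, against 8349, 26414 and 11816 in model libraries 1, 3 and 4, and 17789, 20613 and 24554 in sham libraries 1, 3 and 5. Model 3 was higher than every other library, while the other 2 model libraries lay below all sham libraries. Model over sham was at -0.60 on the log2 scale (SE 0.37, limma adjusted p = 0.363), and without model 3 it was called at -1.07 (adjusted p = 0.0391).

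Aldh1l1, a folate-metabolising dehydrogenase widely used to mark astrocytes, lies on chromosome 4 at 123060008 to 123106465. It had 1879, 807 and 723 normalized reads in astaxanthin libraries 1, 2 and 3, against 534, 1593 and 517 in model libraries 1, 3 and 4, and 1401, 1196 and 2507 in sham libraries 1, 3 and 5. Model 3 reached the sham range, and the other 2 model libraries did not. Model over sham was at -1.08 on the log2 scale (SE 0.54, limma adjusted p = 0.258).

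Sox9, on chromosome 10 at 97806485 to 97811994, had 1406, 1291 and 1728 normalized reads in astaxanthin libraries 1, 2 and 3, against 1328, 2673 and 1705 in model libraries 1, 3 and 4, and 846, 681 and 881 in sham libraries 1, 3 and 5. Each of the 6 libraries from occluded rats was higher than each sham library. The means were 1902 ± 694 in model and 802 ± 107 in sham (SD, n = 3 each), a ratio of 2.37. Sox9 was thus 1.19 higher in model than in sham on the log2 scale (SE 0.27, limma adjusted p = 0.0450).

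The 3 calls lay close to the threshold and changed with single libraries, as did calls over all genes. All genes called numbered 848 with every library, 124 without model 1, 79 without sham 1, 72 without sham 3 and 171 without sham 5. They numbered 1608 without astaxanthin 1 and 1041 without model 4. The losses below are therefore not particular to these 3 genes. For Fgfr3 the limma adjusted p was 0.0568 without astaxanthin 3, 0.105 without model 1, 0.0699 without model 3, 0.127 without sham 1, 0.0898 without sham 3 and 0.122 without sham 5. Slc7a10 lost its call in the same 6 cases, with adjusted p of 0.0686, 0.114, 0.0824, 0.147, 0.0889 and 0.139 in that order, and also without astaxanthin 2 at 0.0537. Sox9 kept its call only when astaxanthin 1 was left out. Its adjusted p in the other cases was 0.0691 without astaxanthin 2, 0.0629 without astaxanthin 3, 0.0634 without model 1, 0.0625 without model 3, 0.0663 without model 4, 0.139 without sham 1, 0.157 without sham 3 and 0.109 without sham 5. In these fits the log2 fold change stayed between -1.26 and -0.95 for Fgfr3, between -2.30 and -1.59 for Slc7a10 and between 0.91 and 1.42 for Sox9. By edgeR Fgfr3 (adjusted p = 0.0464) and Sox9 (0.0430) were called and Slc7a10 was not (0.0564), beside 3.25% of all genes called higher and 0.81% lower, and DESeq2 called all 3.

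Model 3 and astaxanthin 1, which stood apart in their cell markers, were also left out together. Model 3 had the highest Gja1 and Aldh1l1 values of the model libraries, so leaving it out by itself lowers both genes in model against sham. With both libraries left out, 1 of the 10 genes was higher in model than in sham and 5 were lower, against 8.7% and 6.85% of all genes tested. Aldh1l1 was called at -1.62 (limma adjusted p = 0.0198), Gja1 at -1.07 (0.0172) and Kcnj10 at -1.25 (0.0476), beside Fgfr3 at -0.95 (0.0343), Slc7a10 at -1.59 (0.0383) and Sox9 at 0.91 (0.0314). In model 3 the infiltrating myeloid list was 6.67 above the sham mean on the log2 scale, the endothelial list 2.58 above and the pan-neuronal list at -1.60, and all 25 ribosomal protein genes were at their highest; the part of this in the values of Gja1, Aldh1l1, Glul and Sox9 was not tested.

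**Figure D2:**
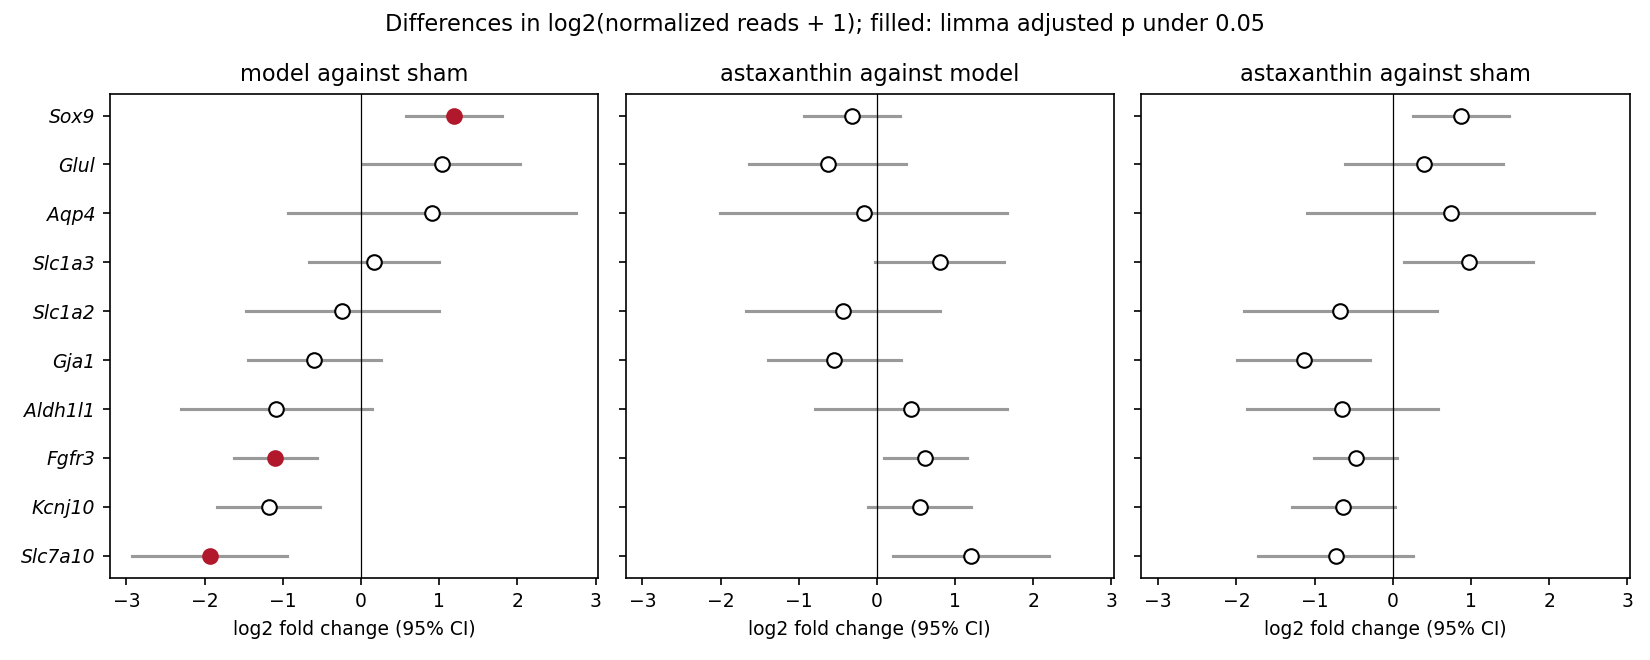
Log2 fold changes of the 10 genes in 3 panels, model against sham on the left, astaxanthin against model in the middle and astaxanthin against sham on the right (dot) with unadjusted 95% confidence intervals (line); filled dots have a limma adjusted p under 0.05. Filled dots are Sox9 at 1.19, Fgfr3 at -1.09 and Slc7a10 at -1.94 in model against sham, and no dot is filled in the other comparisons.

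In astaxanthin against model, the groups overlapped for all 10 genes, where 5.72% of all genes were apart in the higher and 7.24% in the lower direction, and none passed the test. The difference furthest from 0 was in Slc7a10, and that of Fgfr3, which had fallen with it in model, was smaller. Slc7a10 averaged 1134 ± 386 normalized reads in astaxanthin libraries and 510 ± 247 in model libraries, and Fgfr3 averaged 3900 ± 749 in astaxanthin libraries and 2544 ± 552 in model libraries (SD, n = 3 each). In log2 terms the difference was 1.21 for Slc7a10 (SE 0.44, limma adjusted p = 0.548) with an unadjusted 95% confidence interval from 0.21 to 2.20, and 0.62 for Fgfr3 (SE 0.23, limma adjusted p = 0.548) with an interval from 0.09 to 1.15. Slc1a3 was at 0.80 (SE 0.36, limma adjusted p = 0.563), and Kcnj10 at 0.55 (SE 0.29, limma adjusted p = 0.588). These differences share the model libraries with the comparison against sham, so a low model value enters both. The median over the 10 genes was 0.13, beside -0.01 for all genes tested. With limma and edgeR 0% of all 17770 genes were called here, while 1579 (8.89%) had an unadjusted p under 0.05 and DESeq2 called 204 genes (1.21%), none of them among the 10.

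Glul, Gja1 and Sox9 averaged lower in astaxanthin than in model libraries, and this rested on model 3. On the log2 scale the difference was -0.63 for Glul (SE 0.44, limma adjusted p = 0.635), -0.54 for Gja1 (SE 0.37, limma adjusted p = 0.630) and -0.32 for Sox9 (SE 0.27, limma adjusted p = 0.692). Without model 3 these values were -0.07, -0.07 and -0.04. Slc1a2 was at -0.43 (SE 0.54, limma adjusted p = 0.787) and turned to 0.26 without astaxanthin 1. Without astaxanthin 1 Slc1a3 was at 0.48 and Aldh1l1 at 0.01, against 0.80 and 0.44 with it.

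In astaxanthin against sham, none of the 10 genes passed the limma test, which called 0.236% of all genes higher and 0.0394% lower, or the DESeq2 test, which called 4.65%. Sox9 lay higher in all astaxanthin libraries than in any sham library, and Kcnj10, Gja1 and Fgfr3 lay lower, while 13% of all genes were apart in the higher and 11.4% in the lower direction. Sox9 averaged 1475 ± 227 normalized reads in astaxanthin and 802 ± 107 in sham libraries (log2 fold change 0.88, SE 0.27, limma adjusted p = 0.266). Gja1 averaged 9453 ± 638 in astaxanthin and 20985 ± 3398 in sham libraries (-1.14, SE 0.37, limma adjusted p = 0.286), and its 3 astaxanthin values were within 1.13-fold of each other. Without model 3, which enters this comparison only through the shared spread, Gja1 was called at the same fold change (adjusted p = 0.0492). Without both model 3 and astaxanthin 1 it was called at -1.08 (limma adjusted p = 0.0311), beside 2.93% of all genes called higher and 1.17% lower. Kcnj10 was at -0.63 (SE 0.29, limma adjusted p = 0.421), Fgfr3 at -0.47 (SE 0.23, limma adjusted p = 0.444) and Slc1a3 at 0.97 (SE 0.36, limma adjusted p = 0.343). The median over the 10 genes was -0.55, beside 0.04 for all genes tested.

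The spread within groups was large for these genes. The median coefficient of variation over the 10 genes was 28.2% in astaxanthin, 36.4% in model and 17.8% in sham libraries, against 19.4%, 22.8% and 10.03% for all genes at least as high as the lowest of the 10 in the same groups. It ran from 6.75% for Gja1 in astaxanthin libraries to 100% for Aqp4 in sham libraries.

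Ratios to Sox9 within a library were taken after the values of the 10 genes had been seen. A ratio within a library does not depend on how the library was scaled. Kcnj10 over Sox9 was 6.81, 6.05 and 7.04 in astaxanthin libraries 1, 2 and 3, against 3.30, 2.76 and 5.31 in model libraries 1, 3 and 4, and 18.8, 18.4 and 19.3 in sham libraries 1, 3 and 5. The sham values lay within a narrow band, and the 3 groups did not overlap. Fgfr3 over Sox9 was 3.14, 2.35 and 2.46 in astaxanthin libraries, against 1.82, 0.772 and 1.85 in model libraries and 6.07, 6.66 and 7.46 in sham libraries. Slc7a10 over Sox9 was 1.06, 0.558 and 0.693 in astaxanthin libraries, against 0.349, 0.108 and 0.455 in model libraries and 2.21, 1.79 and 2.94 in sham libraries. Again the astaxanthin libraries lay above all model libraries and below all sham libraries. The ratio to Sox9 was lower in all model libraries than in any sham library for 7 of the other 9 genes, beside 60.1% of all genes, and lower in all astaxanthin libraries than in any sham library for 6 of 9, beside 53.3%; with shares this high for all genes, neither count is a result about the 9 genes. It was higher in all astaxanthin libraries than in any model library for 4 of 9 (Slc1a3, Kcnj10, Slc7a10 and Fgfr3), beside 7.58% of all genes. All 9 ratios share Sox9 and are not separate observations, so this count too is no result about the 9 genes. Without the ratio all 10 genes overlapped in this comparison. No gene of the 9 was apart in the opposite direction, where the shares of all genes were 3.33% in model against sham, 1.8% in astaxanthin against model and 1.78% in astaxanthin against sham. These ratios were not tested.

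**Figure D3:**
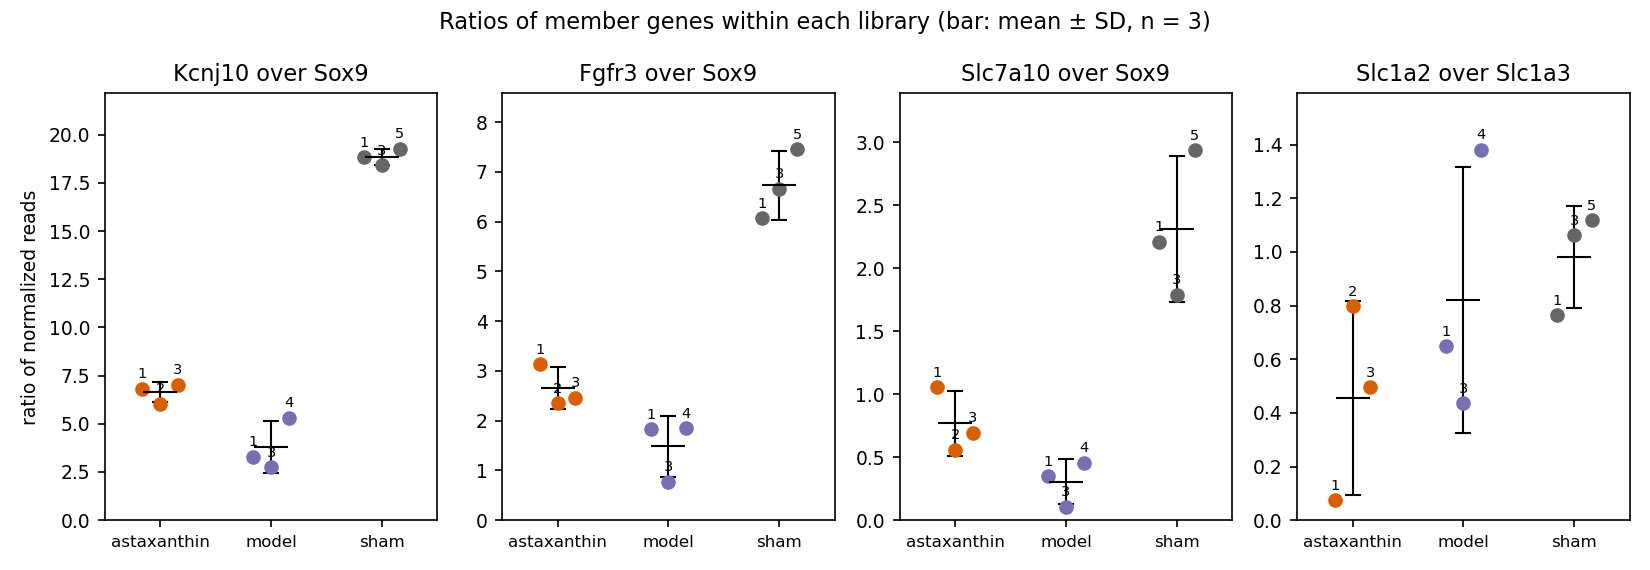
Ratios of normalized reads of Kcnj10, Fgfr3 and Slc7a10 to Sox9, and of Slc1a2 to Slc1a3, in astaxanthin, model and sham libraries; each point is a library with its number, the bar is the mean and the whiskers the SD of 3 libraries. In the 3 ratios to Sox9 the astaxanthin libraries lie between the model and the sham libraries, as for Kcnj10 with 6.05 to 7.04 in astaxanthin, 2.76 to 5.31 in model and 18.4 to 19.3 in sham, and astaxanthin 1 has the lowest Slc1a2 to Slc1a3 ratio at 0.0753. The ratios of Slc1a2, Aqp4, Glul, Gja1 and Aldh1l1 to Sox9, not drawn, overlapped between astaxanthin and model libraries.

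The 10 genes were also set against other astrocyte genes by scaling each library to 29 further astrocyte identity genes, an alternative added after the data were seen. On this scale the median log2 fold change of all genes in model against sham was 0.43, beside 0.02 for the values as deposited. With it Sox9 was 1.62 higher in model than in sham (limma adjusted p = 0.00447) and Glul 1.46 higher (0.0463), while Slc7a10 at -1.51 (0.0712), Kcnj10 at -0.75 (0.121) and Fgfr3 at -0.67 (0.202) no longer passed. Of all genes 8.65% were called higher and 0.293% lower on it. In astaxanthin against sham Sox9 passed at 1.33 (0.0351), beside 0.957% of all genes called higher and 0.0169% lower, and the median of all genes was 0.48, beside 0.04 for the values as deposited. In astaxanthin against model no gene passed.

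Per kilobase of exon, which allows levels of different genes to be compared, Glul was the most abundant of the 10 in every group, with a mean of 29179 normalized reads per kilobase in astaxanthin, 51569 in model and 24865 in sham libraries. In sham it was followed by Slc1a2 at 10481, Slc1a3 at 5927, Gja1 at 5720, Aqp4 at 4250, Kcnj10 at 2814, Fgfr3 at 1315, Slc7a10 at 1013, Aldh1l1 at 536 and Sox9 at 199. Neighbours in this sham order did not overlap between Glul and Slc1a2, Slc1a2 and Slc1a3, Kcnj10 and Fgfr3, and Aldh1l1 and Sox9; the other 5 neighbouring pairs overlapped. Slc1a3 came before Slc1a2 in astaxanthin libraries, at 11812 and 7934 normalized reads per kilobase, with overlap and with the order held in 2 of the 3 libraries. Sox9 came last of the 10 in sham, ninth in astaxanthin at 366 and eighth in model at 472, and Slc7a10 came last in model at 273; in model these lowest neighbours overlapped. Values per kilobase depend on how reads were divided among isoforms of unlike length, which differed between libraries. Sham 5 had the most Gja1 reads of the sham libraries but the lowest value per kilobase (4809). Sham 3 had the fewest Glul reads of the sham libraries but the highest value per kilobase (27587).

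The transcript table divided each gene among annotated isoforms, and for several genes that division differed between libraries of the same group. Of the 33 annotated transcripts of the 10 genes, 27 passed the filter on low values, and none of these 27 passed the test in any comparison, where limma called 0.689% of the 32824 transcripts tested in model against sham, 0.0518% in astaxanthin against model and 0.204% in astaxanthin against sham. The smallest adjusted p among them was 0.108, for the only annotated transcript of Slc7a10 in model against sham. Gja1-201 held 100% of the Gja1 reads in astaxanthin 2 and sham 5 and 0.10% to 7.08% in the other 7 libraries, where Gja1-202 held the rest. Fgfr3-202 held 65.1% to 88.4% of the Fgfr3 reads in 8 libraries and 0% in astaxanthin 2, where Fgfr3-203 held 76.7%. Glul-201 held 42.7% of the Glul reads in sham 3 and 5.29% to 7.59% elsewhere. In each of these 3 genes 1 or 2 libraries differed from the others of their own group.

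For Aqp4, Aqp4-203 held 89.9%, 41.4% and 42.5% of the reads in astaxanthin libraries 1, 2 and 3, against 81.7%, 91.7% and 87.3% in model libraries 1, 3 and 4, and 9.95%, 53.7% and 50.3% in sham libraries 1, 3 and 5. The share was above that of every sham library in all 3 model libraries, and the astaxanthin libraries overlapped both groups. In sham 1 Aqp4-202 held 85.8%. The log2 fold change of Aqp4-203 in model over sham was 2.46 (SE 1.05, limma adjusted p = 0.314 over all transcripts tested), and that of Aqp4-202 was -4.18 (SE 1.32, limma adjusted p = 0.189). Slc1a3 and Kcnj10 were nearly all assigned to a single isoform, Slc1a3-202 with 96.4% to 99.8% and Kcnj10-201 with 91.5% to 100%.

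**Figure D4:**
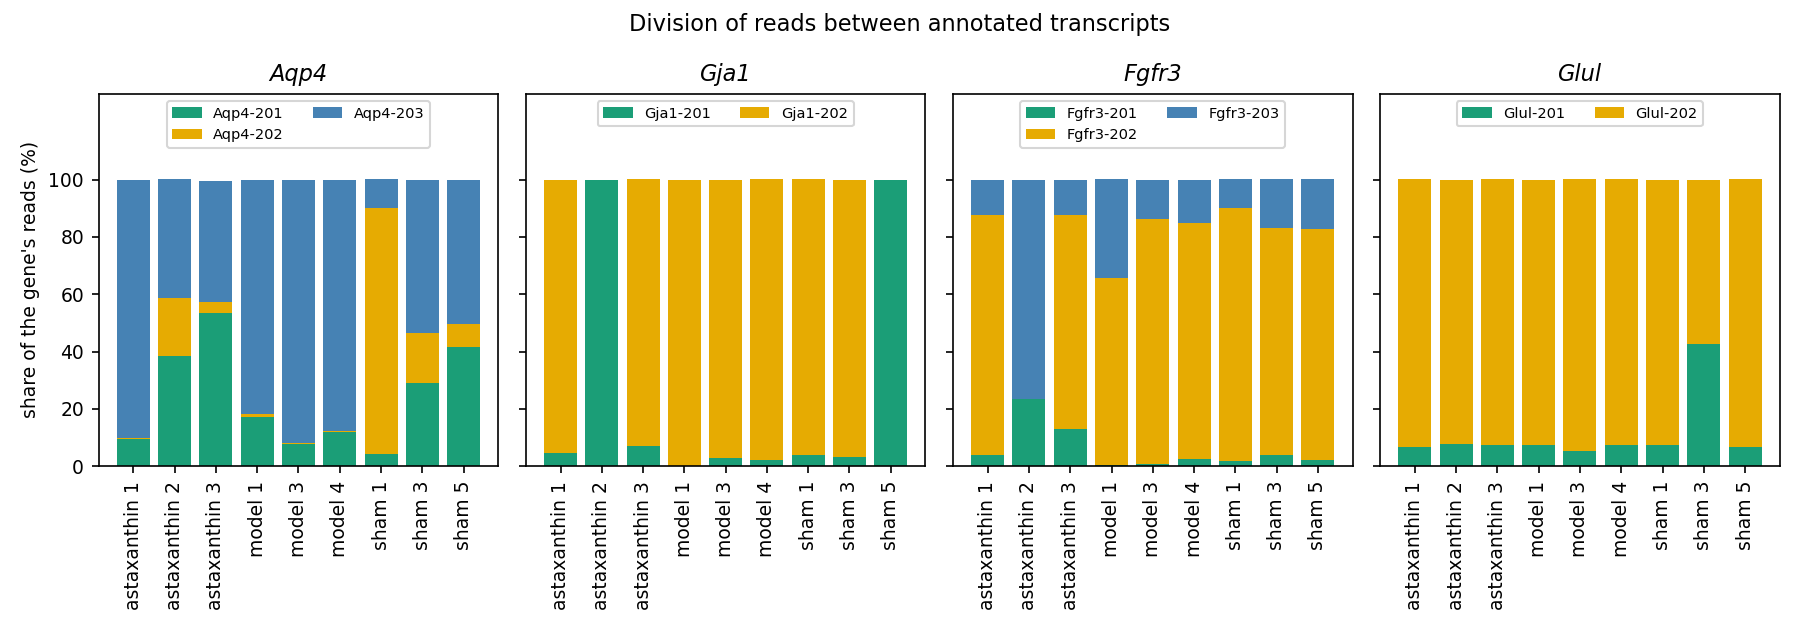
Share of each gene's reads (percent) assigned to its annotated transcripts holding at least 5% in any library, for Aqp4, Gja1, Fgfr3 and Glul in the astaxanthin, model and sham libraries; each bar is a library. Gja1 is assigned to Gja1-201 alone in astaxanthin 2 and sham 5, and Aqp4-203 holds 81.7% to 91.7% in the model libraries.

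Genes beside the 10 were read from lists chosen with earlier results of these data known. Of 17 further genes of amino acid uptake and the glutamine cycle, 2 rose and 2 fell in model against sham. Slc1a5, a neutral amino acid exchanger, averaged 706 ± 343 normalized reads in astaxanthin, 1702 ± 736 in model and 192 ± 7.07 in sham libraries (model over sham 3.06, SE 0.45, limma adjusted p = 0.0153). Slc7a11, the cystine and glutamate exchanger, averaged 1064 ± 506 in astaxanthin, 3626 ± 978 in model and 1179 ± 199 in sham libraries (1.59, SE 0.35, limma adjusted p = 0.0428). Slc6a11, a GABA transporter of astrocytes, was among those that fell (-2.21, SE 0.50, limma adjusted p = 0.0440). The median of the 17 genes was -0.52. In astaxanthin against model limma called none of them, and DESeq2 called Slc7a11 lower (adjusted p = 0.00400).

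None of 19 further genes of potassium, water and pH handling and none of 5 further coupling genes was called in model against sham. The smallest adjusted p among the 19 was that of Hepacam, a membrane protein of astrocyte junctions, at -0.93 (SE 0.22, limma adjusted p = 0.0507), and 7 of the 19 lay lower in all model libraries than in any sham library, beside the 16.6% of all genes given above. Among the coupling genes Gjb6, a second gap junction protein of astrocytes, averaged 2166 ± 2365 in astaxanthin, 1319 ± 907 in model and 4237 ± 760 in sham libraries (-1.92, SE 0.75, limma adjusted p = 0.165).

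Of 15 further astrocyte transcription factors, Hopx, a homeodomain protein, rose in model against sham (1.86, SE 0.41, limma adjusted p = 0.0419) and Sox8, a relative of Sox9, fell (-1.30, SE 0.25, limma adjusted p = 0.0274). Sox8 had 1256, 1335 and 1966 normalized reads in astaxanthin libraries 1, 2 and 3, against 921, 1304 and 1487 in model libraries 1, 3 and 4, and 3132, 2568 and 3349 in sham libraries 1, 3 and 5, so that all sham libraries were higher. Of 16 receptor genes, Fgfr1 rose (1.68, SE 0.27, limma adjusted p = 0.0180), and the glutamate receptor Grm3 (-1.69, SE 0.22, limma adjusted p = 0.0102), the Toll-like receptor partner Tril (-2.52, SE 0.53, limma adjusted p = 0.0359) and Btbd17 (-3.20, SE 0.74, limma adjusted p = 0.0472) fell. The receptor Fgfr1 thus had the opposite direction to Fgfr3, with 9973 normalized reads on average in astaxanthin, 16313 in model and 5258 in sham libraries.

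Of 29 other astrocyte identity genes, 4 fell in model against sham (the acyl-CoA synthetase Acsl6, the matrix link protein Hapln1, Ttyh1 and the claudin Cldn10) and none rose, with a median of -0.59. Of 27 genes listed for reactive astrocytes, 18 rose and none fell, with a median of 3.02. In bulk tissue the cells that held these transcripts cannot be told. Gfap, the astrocyte intermediate filament, had 45886, 175495 and 197760 normalized reads in astaxanthin libraries 1, 2 and 3, against 200461, 99814 and 201186 in model libraries 1, 3 and 4, and 22916, 13459 and 39303 in sham libraries 1, 3 and 5. All 6 libraries from occluded rats were higher than the sham libraries, and in model against sham Gfap rose by 2.79 (log2, limma adjusted p = 0.0420). Among model libraries Gfap was lowest in model 3, where the list as a whole and the myeloid and endothelial lists were highest. In astaxanthin against model limma called none of the 27, while DESeq2 called 4 lower (Thbs1, Stat3, Aspg and Timp1) and none higher, beside 0.863% of all genes called lower. There 26 of the 27 were negative, with a median of -1.25 beside -0.01 for all genes tested, and 9 lay lower in all astaxanthin libraries than in any model library, beside 7.24% of all genes. The mean log2 difference of the list from sham was 1.22, 2.40 and 3.03 in astaxanthin libraries 1, 2 and 3. It was 3.18, 4.22 and 2.89 in model libraries 1, 3 and 4, so the groups overlapped. Astaxanthin 1 was lowest of these and model 3 highest, and their part in this difference was not tested. In astaxanthin against sham limma called 3 of the 27 higher (Ptx3, Tnc and Timp1) and DESeq2 called 15 higher, beside 3.07% of all genes, and neither called any lower.

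**Figure D5:**
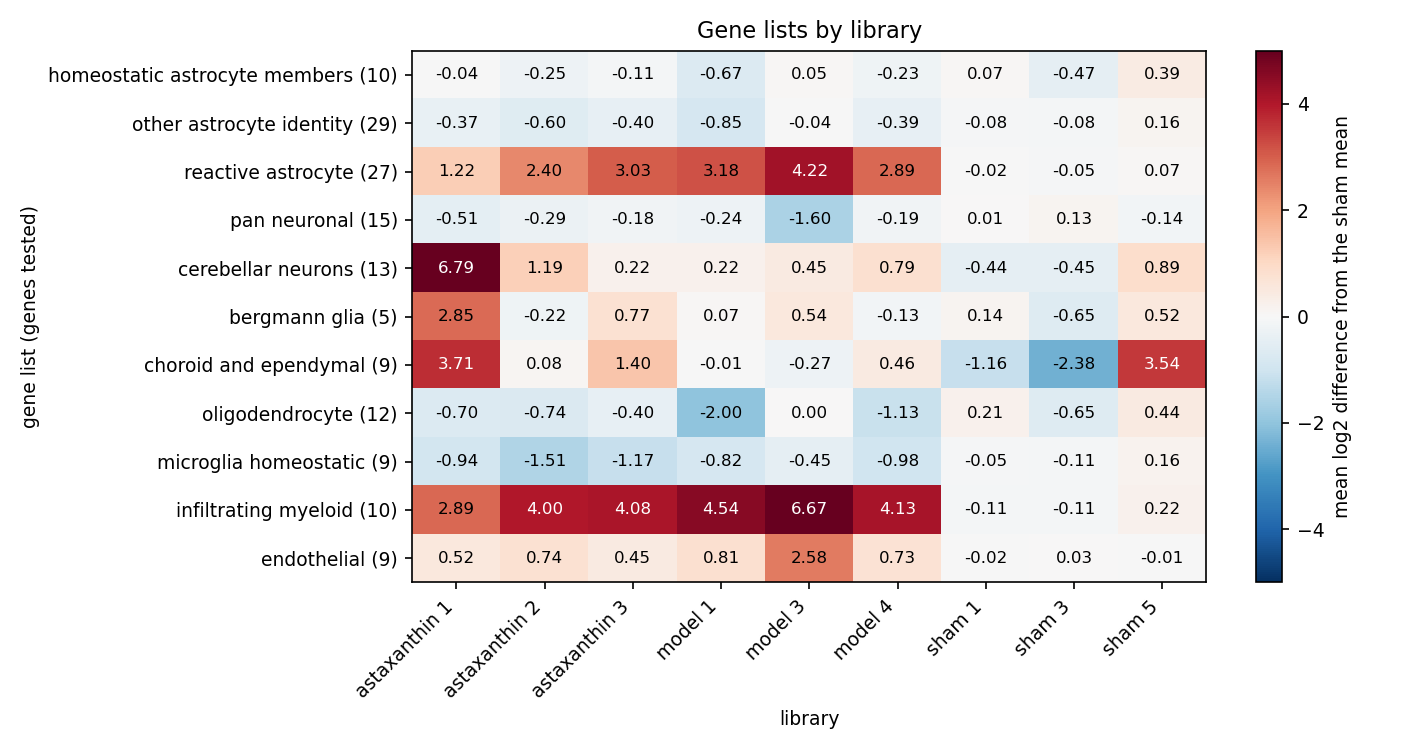
Mean log2 difference from the sham mean for each gene list (rows, with the number of genes tested) in each library (columns), on a colour scale from blue (lower) to red (higher). The mean of the 10 homeostatic genes stays between -0.67 and 0.39. It averages genes of opposite direction, such as Slc7a10 at -1.94 and Sox9 at 1.19 in model against sham. The reactive astrocyte list is at 1.22 to 3.03 in astaxanthin and 2.89 to 4.22 in model libraries. The cerebellar list reaches 6.79 in astaxanthin 1.

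The genes whose profiles over the 9 libraries were most like those of the 10 were found by the same scaled Euclidean distance over 17760 other genes. Caly lay nearest to both Slc7a10 and Fgfr3, at 0.36 from each, Mdfi nearest to Sox9 at 0.39, Nfkbia nearest to Glul at 0.43 and Acads nearest to Aldh1l1 at 0.47. Slco2b1 lay nearest to Gja1 at 0.56, Slc26a4 to Slc1a2 at 0.61, Gas2 to Kcnj10 at 0.63, Pms1 to Slc1a3 at 0.68 and Dnai2 to Aqp4 at 0.97. Caly had 10153, 5885 and 8894 normalized reads in astaxanthin libraries 1, 2 and 3, against 3963, 2827 and 6058 in model libraries 1, 3 and 4, and 14608, 10803 and 16770 in sham libraries 1, 3 and 5. As for Slc7a10 and Fgfr3, model 3 was lowest and sham 5 highest, a likeness by which Caly was picked.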

How the data were processed

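Brain RNA was sequenced in 9 libraries, 3 per group, grouped by the treatment label. The submitters' processing notes name the build rn7 and the tools STAR, StringTie, FastQC and DESeq2; versions, settings and strand of counting are not given in the sources used here. The values the authors deposited for 22888 genes and 45893 transcripts are a normalized signal: within a library 100% of the values divide by the same number to whole reads (tolerance 0.01), so reads were recovered. Each library held 52268061 to 76311125 reads; the limit a count of 0 allows (3 reads) is 2.45 to 3.75 normalized reads.

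The test covered 17770 genes that reached 0.5 in 3 or more libraries and was made with limma 3.58.1 (R 4.3.3; trend and robust moderation) on log2(value + 1), all libraries in 1 fit, group as the only term, two-sided, with Benjamini-Hochberg adjustment and a threshold of 0.05. Fold changes are on that log2 scale, and confidence intervals are unadjusted. Transcripts were tested alike. edgeR 4.0.16 and DESeq2 1.42.0 were run on the recovered reads as alternatives, beside other pseudocounts, filters, scalings and left-out libraries. The script was checked on simulated data.

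Named genes were the 10 chosen genes, their transcripts with at least 5% of a gene, the 4 genes with the smallest p of each list per comparison, the nearest profiles, and Gfap, Gabra6, Gdf10, Ttr and Mbp; other genes were named after their values were seen. A few results under this rule are not reported here. The 10 genes and the lists were chosen with earlier results of these data known. Promoter windows came from RefSeq (GRCr8), a build other than that of the tables; no genome was used.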

Additional observations from a re-analysis of the deposited data

How the results depend on the processing

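With 3 libraries per group, small shifts of the adjusted p decided the calls among the 10 genes, and a call missed is no sign of equal levels. Of 600 values of single genes under alternatives, 548 kept their direction and side of the threshold, 29 lost a call, 11 gained a call and 12 changed sign. None of the 10 genes was called in astaxanthin against model under any of the 20 alternatives. With a single library left out, the log2 fold change of Aqp4 ran from -0.51 to 0.066 in astaxanthin against model (reversed without astaxanthin 3), from -0.27 to 1.62 in astaxanthin against sham and from -0.098 to 1.79 in model against sham (both reversed without sham 3). That of Slc1a2 ran from -0.89 to 0.26 in astaxanthin against model and from -1.13 to 0.024 in astaxanthin against sham, reversed in both without astaxanthin 1. That of Slc1a3 in model against sham ran from -0.061 to 0.43, reversed without model 3 and without sham 3 (-0.038). Without both model 3 and astaxanthin 1, Slc1a2 was at 0.12 in astaxanthin against model and 0.024 in astaxanthin against sham, Glul at 0.082 in astaxanthin against model and Slc1a3 at -0.061 in model against sham. Scaled to 29 other astrocyte identity genes, Slc1a2 in model against sham turned to 0.19. The cause of these changes beyond the sample left out was not tested.

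Fitted on 2 groups only, Slc7a10 (adjusted p = 0.0564) and Sox9 (0.0657) lost their calls in model against sham and Fgfr3 kept its call. The labels do not say whether an equal library number in different groups marks anything shared. Deviations of same-numbered libraries correlated at -0.12 to 0.07, and those of differently numbered libraries at -0.17 to 0.16. A shared day or batch was not tested. With a replicate block 0 genes and 0 transcripts were called in every comparison, and the limma adjusted p in model against sham was 0.209 for Fgfr3, 0.151 for Slc7a10 and 0.287 for Sox9. Astaxanthin 2, model 4 and sham 5 share their number with no other library. The block therefore fits them exactly and leaves little to measure the spread, so this loss of calls says little about stability.

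Counts of all genes called in model against sham were 848 as reported, 2943 by DESeq2, 2710 without model 3 and astaxanthin 1, 1589 scaled to astrocyte genes and 72 to 1608 with a single library left out. In astaxanthin against model they were 0 as reported, 204 by DESeq2 and 0 to 3 with a single library left out. In astaxanthin against sham they were 49 as reported, 75 and 12 with a pseudocount of 0.1 and 10, 0 by edgeR, 781 by DESeq2, 4 with only the 2 groups, 713 without model 3 and astaxanthin 1, 173 scaled to astrocyte genes and 1 to 149 with a single library left out. Transcripts called with a single library left out numbered 89 to 498 (226 as reported) in model against sham, 15 to 36 (17) in astaxanthin against model and 46 to 130 (67) in astaxanthin against sham.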
